A study of Mus musculus with 7 samples.

Results

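Costimulatory and checkpoint molecules are surface proteins that tune the exchange between antigen-presenting cells and T cells. The 10 genes described here, all of those named for the group, encode the PD-1 ligands Cd274 (PD-L1) and Pdcd1lg2 (PD-L2), the CD28 and CTLA-4 ligands Cd80 and Cd86, the ICOS ligand Icosl, the receptors Cd40, Havcr2 (TIM-3) and Lag3, the inhibitory molecule Vsir (VISTA) and the anti-phagocytic signal Cd47. They were picked by symbol from 55401 genes in the count table, and the choice was made with their ATG7 and EYFP values in view. Their differences between the groups are therefore given as a description, without a test. Of the 10 genes, 9 passed the filter on low counts and stood among the 19199 genes fitted, and Pdcd1lg2 did not pass.

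RNA was sequenced from CD11b-bead-enriched cells of the dorsal hippocampus of C57BL/6 mice 6 to 8 weeks old, which the series describes as adult males. Both groups carried AAV-RAM-Cre, delivered to the dorsal dentate gyrus, where the activity-dependent RAM promoter limits Cre to neurons of a memory engram. The 4 EYFP libraries, the controls, came with AAV-Dio-EYFP, and the 3 ATG7 libraries came with AAV-Dio-Atg7-Flag, which drives the autophagy gene Atg7 in those neurons. The transgene was thus aimed at neurons, while the RNA came from enriched microglia. The labels do not say whether a library is 1 mouse or a pool, so the spread between libraries may in part be technical.

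Antigen-presenting cells give T cells a costimulatory signal through CD80 and CD86, and receive one back through CD40. The PD-1 ligands, VISTA, TIM-3 and LAG-3 act in the opposite direction and hold immune responses in check, and interferon gamma acting through IRF1 is the classical inducer of PD-L1. Microglia express VISTA, TIM-3 and the CD47 receptor SIRPa as part of their normal surface. CD47 on neurons and other cells signals through SIRPa that a cell should not be eaten.

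The libraries held 35934210 to 55217119 counts. The sum of 10 microglia markers (among them P2ry12, Tmem119 and Cx3cr1) was between 22590 and 27640 CPM (counts scaled to a common library size) in EYFP and between 22340 and 27510 CPM in ATG7, so the labelled cell type was present in every library. Choroid plexus markers were more abundant still, at 46510 to 72450 CPM for 8 genes. One library stood apart from its label: EYFP 3 had 938.5 CPM of Xist, the transcript of the inactive X chromosome, against 0.151 to 0.574 CPM in the other libraries, and 27.6 CPM of the Y-linked gene Ddx3y, against 121.1 to 168.7 CPM. Log2 ratios of the genes described, and the other values that EYFP 3 moves most, are therefore given with and without it. In the fit across all genes, 145 genes had an adjusted p under 0.05 (edgeR, quasi-likelihood) and are referred to as called, and 164 without EYFP 3. That count was 30 without EYFP 4, 28 without ATG7 2, 30 without ATG7 3, 94 without EYFP 2 and 277 without EYFP 1.

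Among the 9 genes fitted, Cd274, Cd40 and Lag3 had the largest log2 fold changes, and all 3 were higher in every ATG7 library than in any EYFP library. The log2 fold changes of Cd80, Cd86, Icosl, Cd47, Havcr2 and Vsir lay between -0.08 and 0.26. Of the 9 genes fitted, 2 (Cd274 and Lag3) were called, both as higher in ATG7 and none as lower. Over all genes tested 0.755% were called, 0.688% as higher and 0.0677% as lower. In 4 of the 9 genes (Cd274, Lag3, Cd40 and Cd47) the groups did not overlap, against 11.2% of all genes tested. The median log2 fold change from EYFP to ATG7 (log2 ratio below, with its standard error, SE) was 0.17 for the 9 and -0.0037 for all genes, and 7 of the 9 were positive. For later counts, 12% of all genes tested had an unadjusted p under 0.05 by edgeR, and DESeq2 called 3.61% of the 16218 genes to which it gave an adjusted p. Nothing is read from these shares, since the genes were chosen with this contrast known.

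**Figure D1:**
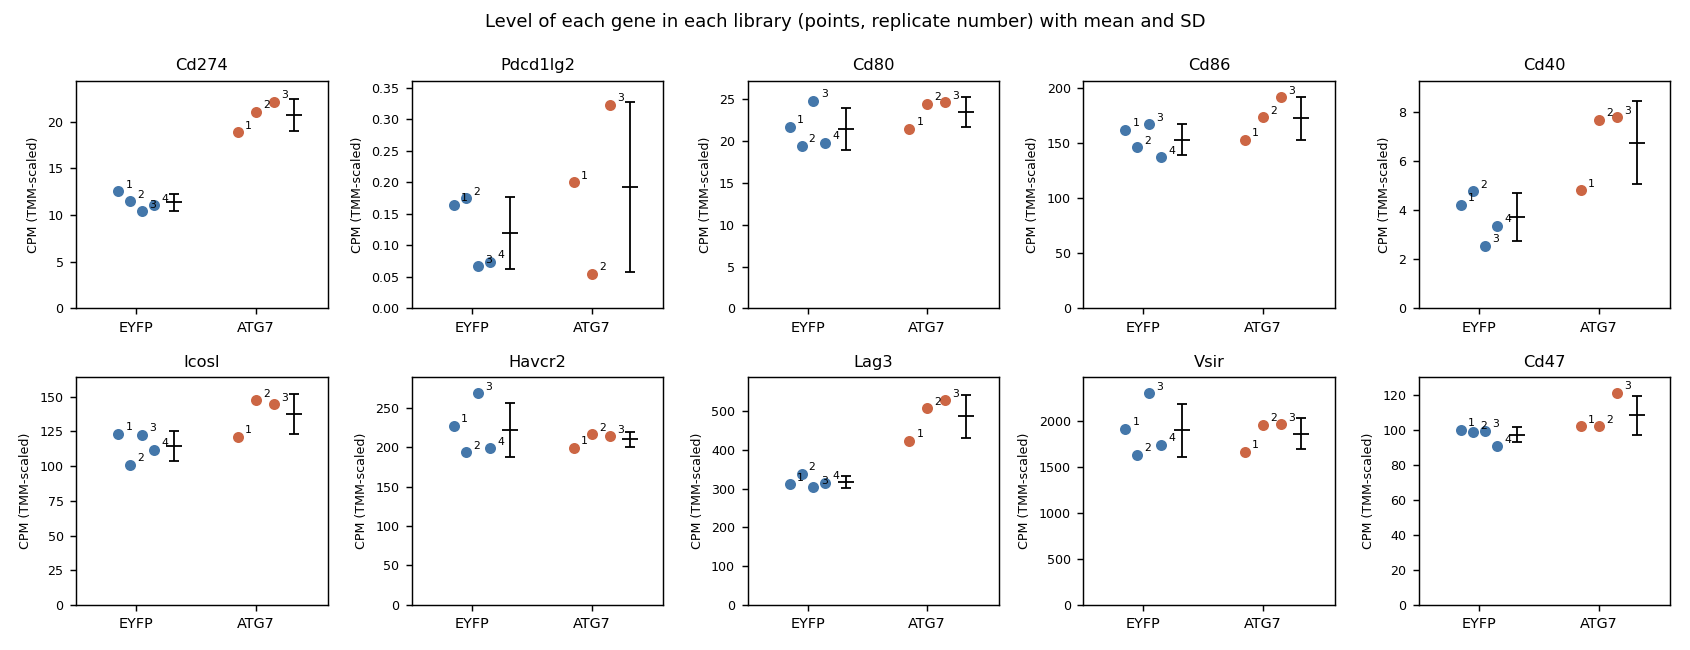
Level of each of the 10 genes (CPM scaled by TMM factors, vertical axes from 0) in the 4 EYFP and 3 ATG7 libraries, each point labelled with its replicate number, with the mean and SD of each group beside the points. Cd274, Lag3 and Cd40 are higher in all 3 ATG7 libraries than in any EYFP library, and EYFP 3 is the highest library for Cd80, Havcr2 and Vsir.

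The 2 genes for PD-1 ligands lie side by side on chromosome 19 (GRCm38), Cd274 (ENSMUSG00000016496) from 29367455 to 29388095 and Pdcd1lg2 (ENSMUSG00000016498) from 29410919 to 29471161, both on the forward strand and 22.8 kb apart. The 250 bases before each RefSeq start site (build GRCm38.p6) are shown because these neighbours encode ligands of the same receptor, yet Cd274 was read in every library and Pdcd1lg2 was close to absent. The windows are chr19:29367188-29367437 and chr19:29410669-29410918, written 5′ to 3′ on the forward strand, with matches to the searched motifs in capitals.
Cd274: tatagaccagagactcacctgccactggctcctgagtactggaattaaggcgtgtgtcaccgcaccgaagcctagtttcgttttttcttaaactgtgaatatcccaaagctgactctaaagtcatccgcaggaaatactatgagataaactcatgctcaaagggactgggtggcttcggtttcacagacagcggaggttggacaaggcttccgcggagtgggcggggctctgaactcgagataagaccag
Pdcd1lg2: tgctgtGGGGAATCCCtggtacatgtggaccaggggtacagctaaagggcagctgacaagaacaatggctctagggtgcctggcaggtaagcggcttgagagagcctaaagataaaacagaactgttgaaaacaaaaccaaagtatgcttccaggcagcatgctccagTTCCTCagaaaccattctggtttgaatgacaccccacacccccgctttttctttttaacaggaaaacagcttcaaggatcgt

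The 4 motifs were searched on both strands of the window from 250 bases before to 50 bases after each start site: the core of the interferon-stimulated response element (GAAA, any 2 bases, GAAA), the interferon gamma activated site GAS (TTCNNNGAA), the NF-kB site, and the PU.1 site GAGGAA, the binding sequence of a myeloid transcription factor. Of 32851 RefSeq windows, 3.44% held the first, 8.30% the second, 8.46% the third and 28.3% the last. The Cd274 window held none of the 4, which says only that these letters are not in it. The Pdcd1lg2 window held 1 NF-kB match, whose letters fit the pattern on both strands, and 1 PU.1 match on the reverse strand, which do not overlap. The Cd274 window was the richer in CpG, with 15 CpG dinucleotides and 52.7% GC against 3 and 46.0% in Pdcd1lg2, where the median of all windows was 7 and 52.7%. Windows were found for 7 of the 10 genes. Of the other windows, that of Icosl held an NF-kB match and that of Havcr2 a PU.1 match, and Cd80, Cd47 and Vsir held none of the 4. Cd86, Cd40 and Lag3 were not matched.

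Cd274 encodes PD-L1, which inhibits T cells that carry PD-1. It stood at 12.5, 11.4, 10.4 and 11.02 CPM across EYFP 1 to 4 and at 18.8, 21.1 and 22.1 CPM across ATG7 1 to 3, from 449 to 1157 counts per library. The ATG7 libraries were all above the EYFP libraries, and EYFP 1 was the nearest of the controls. The means were 11.4 ± 0.901 CPM (SD, n = 4) and 20.7 ± 1.68 CPM (SD, n = 3), a ratio of 1.82. The log2 ratio was 0.87 (SE 0.0991), and 0.82 (SE 0.106) without EYFP 3.

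Pdcd1lg2, for the second PD-1 ligand, was at the edge of detection. Its counts were 6, 8, 3 and 3 across EYFP 1 to 4 and 8, 3 and 15 across ATG7 1 to 3, where 3 counts correspond to between 0.0546 and 0.0820 CPM. Most libraries were near that level, the groups overlapped, and ATG7 3 was the highest. A difference was not detectable at this depth. With no filter on low counts its log2 ratio was 0.66 (SE 0.707), and it was not called.

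The reads of Cd274 could in part be those of another gene, or those of that gene could in part be from Cd274. AC119228.1, an antisense gene on the opposite strand that starts 17.02 kb from Cd274, shares 511 exonic bases with it, and the strand setting of the counting is not given in the sources used here. AC119228.1 had 47 to 73 counts in EYFP and 107 to 191 in ATG7, where Cd274 had 449 to 525 and 754 to 1157. Its log2 ratio was 0.94 (SE 0.249, edgeR adjusted p = 0.146 with Benjamini-Hochberg adjustment, not called). If strand was not used in the counting, reads of the 2 genes in the shared bases cannot be told apart.

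The genes around Cd274 were not used to choose it and were read from the same fit. Plgrkt, a plasminogen receptor gene on the reverse strand, starts 65 bases away from Cd274 in GENCODE M21, so that the pair face away from each other. The EYFP mean of Plgrkt was 78.8 ± 11.7 CPM (SD, n = 4), the ATG7 mean 83.9 ± 8.15 CPM (SD, n = 3), a log2 ratio of 0.09 (SE 0.113, edgeR adjusted p = 0.819). Jak2, the kinase of the interferon gamma receptor, starts 115.6 kb away and had a log2 ratio of 0.21 (SE 0.0617, edgeR adjusted p = 0.189). Within 250 kb of the start sites, 0 of 6 other genes around Cd274 and 0 of 33 around Lag3 passed by edgeR, with 2 and 5 at an unadjusted p under 0.05 (12% of all genes), and DESeq2 called 1 (AC119228.1) and 0. Over all 10 genes, 0 of 90 distinct neighbours were called by edgeR, 9 had an unadjusted p under 0.05 and DESeq2 called 2, shares near those of all genes (12% and 3.61%). Of the 30 neighbours of Lag3 with a mean of at least 1 CPM, log2 ratios ran from -0.36 to 0.30. Cd4, a relative of Lag3 and a T cell coreceptor that starts 23.5 kb from it, had 0.24 (SE 0.146, edgeR adjusted p = 0.581).

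**Figure D2:**
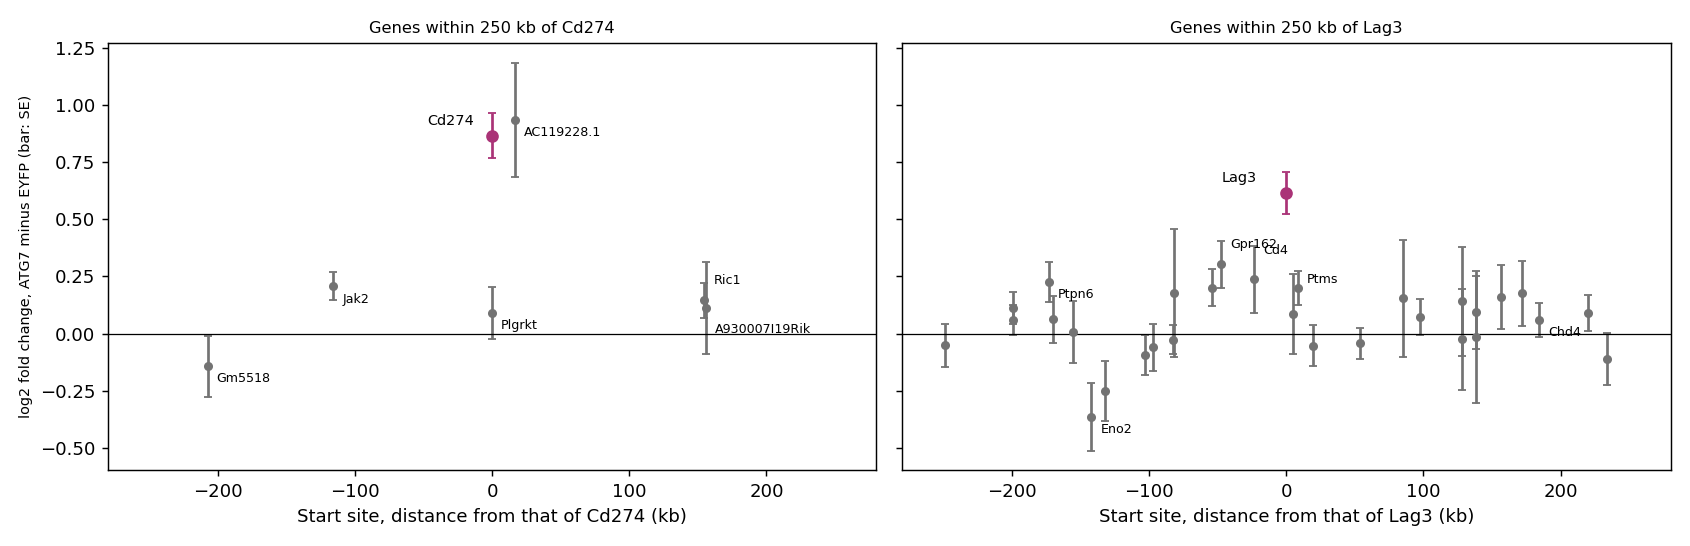
Log2 ratio (ATG7 minus EYFP, vertical axis, bars are SE) of genes with a mean of at least 1 CPM against the distance of their start site from that of Cd274 (left) and Lag3 (right), in kb. Cd274 at 0.87 and Lag3 at 0.62, in purple, lie above all of their neighbours other than the antisense gene AC119228.1 at 0.94.

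Cd80 and Cd86 encode B7-1 and B7-2, the ligands shared by the activating receptor CD28 and the inhibitory receptor CTLA-4. Cd80 (chromosome 16, 38455561 to 38496335) stood at 21.6, 19.4, 24.8 and 19.7 CPM across EYFP 1 to 4 and at 21.4, 24.4 and 24.6 CPM across ATG7 1 to 3. EYFP 3 was above every ATG7 library, so the groups overlapped. Its log2 ratio was 0.14 (SE 0.103), 0.21 (SE 0.0957) without EYFP 3 and 0.09 without EYFP 2.

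Cd86 (chromosome 16, 36603869 to 36666081, reverse strand) was the more abundant of the pair, at 162.1, 146.1, 166.9 and 136.9 CPM across EYFP 1 to 4 and 152.6, 173.1 and 191.3 CPM across ATG7 1 to 3. EYFP 1 and EYFP 3 were above ATG7 1. Its log2 ratio of 0.17 (SE 0.0974) became 0.21 without EYFP 3 and 0.08 without ATG7 3. Per kilobase of exon, Cd86 exceeded Cd80 by 7.26 ± 0.404 times (SD, n = 4) in the controls and 7.41 ± 0.397 times (SD, n = 3) in ATG7, a difference smaller than its spread. The ratio of Cd274 to Cd80 per kilobase, in contrast, was 0.549 ± 0.0811 (SD, n = 4) in the controls and 0.900 ± 0.0198 (SD, n = 3) in ATG7. It lay between 0.429 (EYFP 3) and 0.604 in the EYFP libraries and between 0.881 and 0.920 in the ATG7 libraries. Without EYFP 3 the control ratio was 0.589 ± 0.0167 (SD, n = 3).

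Icosl encodes the ligand of ICOS, a costimulatory receptor of activated T cells. It stood at 123.4, 100.8, 122.7 and 111.8 CPM across EYFP 1 to 4 and at 121.0, 147.4 and 144.5 CPM across ATG7 1 to 3 (chromosome 10, 78069302 to 78083913). ATG7 2 and ATG7 3 were above all controls and ATG7 1 was inside their range. The difference, a log2 ratio of 0.26 (SE 0.0958), was 0.29 without EYFP 3.

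Cd40, the receptor through which T cell CD40 ligand activates antigen-presenting cells, was low. It stood at 4.21, 4.75, 2.55 and 3.36 CPM across EYFP 1 to 4 and at 4.80, 7.66 and 7.76 CPM across ATG7 1 to 3 (chromosome 2, 165055627 to 165072948). The groups did not overlap, but ATG7 1 was only just above EYFP 2. The means were 3.72 ± 0.966 CPM (SD, n = 4) and 6.74 ± 1.68 CPM (SD, n = 3). Its log2 ratio of 0.86 was like that of Cd274, but its SE was 0.234, and Cd40 was not called. Without EYFP 3, the lowest control, the log2 ratio was 0.71. Cd40 was called with no filter on low counts (0.86) and by DESeq2 (0.85).

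Lag3 encodes an inhibitory receptor that binds MHC class II and is best known from exhausted T cells. In these libraries it was abundant, at 311.4, 339.4, 304.1 and 315.8 CPM across EYFP 1 to 4 and at 424.1, 507.9 and 529.2 CPM across ATG7 1 to 3 (chromosome 6, 124904361 to 124911705, reverse strand). The EYFP libraries lay close together, with a coefficient of variation of 4.80%, and every ATG7 library was above them. The means were 317.7 ± 15.2 CPM (SD, n = 4) and 487.1 ± 55.6 CPM (SD, n = 3), a ratio of 1.53. The log2 ratio was 0.62 (SE 0.0917), and 0.59 (SE 0.101) without EYFP 3. The call was lost without EYFP 4 (log2 ratio 0.61), without ATG7 2 (0.59) and without ATG7 3 (0.55).

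Havcr2 encodes TIM-3, an inhibitory receptor of T cells and myeloid cells that binds galectin-9. It stood at 227.3, 193.6, 268.5 and 198.7 CPM across EYFP 1 to 4 and at 199.8, 216.7 and 214.0 CPM across ATG7 1 to 3 (chromosome 11, 46454935 to 46481255). All ATG7 libraries were inside the EYFP range, whose highest library was EYFP 3. The groups differed by a log2 ratio of -0.08 (SE 0.111), which turned to 0.02 (SE 0.0872) without EYFP 3.

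Vsir encodes VISTA, a B7-like inhibitory molecule of myeloid cells that acts both as ligand and as receptor. It was the most abundant of the 10, at 1916, 1634, 2301 and 1743 CPM across EYFP 1 to 4 and 1669, 1958 and 1964 CPM across ATG7 1 to 3 (chromosome 10, 60346851 to 60372684). The groups overlapped, and EYFP 3 was again the highest library. A log2 ratio of -0.03 (SE 0.125) turned to 0.07 (SE 0.106) without EYFP 3, and to 0.05 without ATG7 1.

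Cd47 (chromosome 16, 49800533 to 49915010) stood at 100.4, 98.9, 99.7 and 90.9 CPM across EYFP 1 to 4 and at 102.3, 102.2 and 121.4 CPM across ATG7 1 to 3. The groups did not overlap, but ATG7 1 and ATG7 2 were within 2 CPM of EYFP 1, and ATG7 3 was apart from both. With or without EYFP 3 the log2 ratio was 0.16 (SE 0.0805 with it), and without ATG7 3 it was 0.06.

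Per kilobase of merged exons, the scale on which genes can be compared, the genes spanned several orders of magnitude. Vsir was at 378.7 ± 58.4 CPM per kb (SD, n = 4) in EYFP, Lag3 at 150.6 ± 7.23, Havcr2 at 81.6 ± 12.6 and Cd86 at 41.8 ± 3.80. Icosl followed at 24.8 ± 2.31, Cd47 at 15.5 ± 0.710, Cd80 at 5.77 ± 0.666, Cd274 at 3.13 ± 0.249, Cd40 at 1.09 ± 0.284 and Pdcd1lg2 at 0.0610 ± 0.0293. In EYFP no neighbours in this order overlapped between libraries. The order in ATG7 was the same, but Cd274, at 5.71 ± 0.463 CPM per kb (SD, n = 3), then overlapped with Cd80 at 6.34 ± 0.484 (SD, n = 3). Lag3 reached 231.0 ± 26.4 CPM per kb there, so that Vsir exceeded it by 1.61 times rather than 2.52 times. The inhibitory receptors and VISTA were therefore the high end of the group, and the PD-1 ligands and Cd40 the low end.

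**Figure D3:**
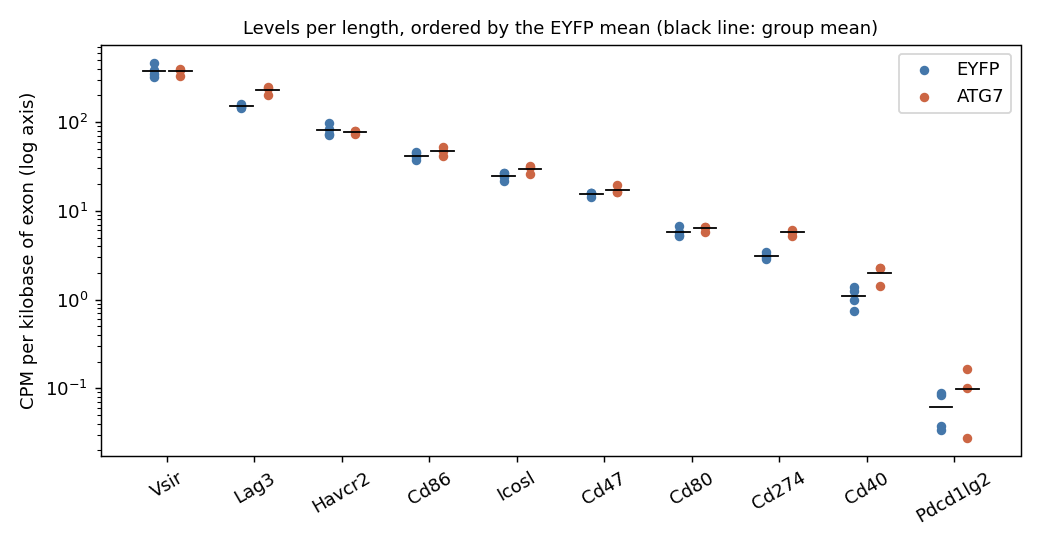
Level per kilobase of exon (log axis) of the 10 genes in each library, ordered by the EYFP mean, with EYFP in blue, ATG7 in orange and group means as black lines. The order runs from Vsir at 378.7 to Pdcd1lg2 at 0.0610 CPM per kb in EYFP, and the libraries of Cd274 and Cd80 overlap in ATG7 but not in EYFP.

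Across the 7 libraries, Cd274 followed Lag3 (Pearson r = 0.97 on log2 CPM, n = 7) and Cd40 (r = 0.89), and Lag3 followed Cd40 (r = 0.91), given as a description because the libraries share their group difference. Without EYFP 3 these were 0.97, 0.87 and 0.93 (n = 6). Vsir and Havcr2 followed each other (r = 0.95, and 0.89 without EYFP 3). Their relation to Cd274 rested on EYFP 3, the highest library for both, at -0.06 and -0.25 with it and 0.52 and 0.34 without it. Cd80 and Cd86 had 0.49 and 0.64 with Cd274, and 0.90 and 0.81 without EYFP 3. Vsir and Cd80 followed the summed microglia markers with and without EYFP 3 (r = 0.91 and 0.90 with it, 0.97 and 0.87 without it). Cd86, Havcr2, Icosl and Cd47 had 0.83, 0.76, 0.75 and 0.50 with the same sum over the 7 libraries. For Cd274, Lag3 and Cd40 that r was 0.23, 0.28 and 0.16 with EYFP 3, and 0.58, 0.60 and 0.72 without it.

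In bulk RNA fewer cells of a type and less RNA per cell cannot be told apart, so the genes were also divided by the microglia marker sum of their own library. Per 1000 CPM of microglia markers, Cd274 was between 0.376 (EYFP 3) and 0.507 in EYFP, from 0.468 without EYFP 3, and between 0.784 and 0.843 in ATG7. Lag3 was between 11.00 (EYFP 3) and 15.02 in EYFP, from 12.3 without EYFP 3, and between 18.92 and 19.24 in ATG7, where the 3 libraries had an SD of 0.170. Icosl on this scale no longer overlapped between the groups (4.63 ± 0.215 (SD, n = 4) and 5.39 ± 0.121 (SD, n = 3)), whereas Cd47 did. Havcr2 and Vsir overlapped on both scales.

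Marker sums of other cell types also differed between the groups. The sum of 15 T and NK cell markers was between 10.9 (EYFP 3) and 18.7 CPM in EYFP, from 13.2 CPM without EYFP 3. In ATG7 it was between 22.5 and 44.9 CPM. All 15 were higher in ATG7, where 49.2% of all genes tested had a positive log2 ratio, and none was at 0 in every library. Their median log2 ratio was 1.61, and 10 had an unadjusted p under 0.05 (12% of all genes). By edgeR 1 was called (Lck, log2 ratio 1.61, edgeR adjusted p = 0.0192), against 0.755% of all genes. Cd4, a large part of the sum with an EYFP mean of 6.96 CPM, had a log2 ratio of 0.24. Cd3e, of the T cell receptor complex, averaged 0.378 CPM in EYFP and 0.973 CPM in ATG7. The sum of 9 dendritic cell markers was between 52.1 and 58.2 CPM in EYFP and between 59.6 and 79.2 CPM in ATG7. Again all 9 were higher, with a median log2 ratio of 0.24, 2 at an unadjusted p under 0.05 and 1 called. That marker, Ccr7, is a homing receptor of mature dendritic cells, though not of them alone. Its EYFP mean was 1.22 ± 0.435 CPM (SD, n = 4) and its ATG7 mean 4.14 ± 0.984 CPM (SD, n = 3). The log2 ratio of Ccr7 was 1.76 (SE 0.275, edgeR adjusted p = 0.0182). Lck was not called without EYFP 4, ATG7 2 or ATG7 3 (adjusted p 0.0759, 0.0832 and 0.115), nor Ccr7 without ATG7 2 or ATG7 3 (0.0757 and 0.115). Xcr1 and Clec9a, of a conventional dendritic cell subset, were at 0.879 and 1.20 CPM in EYFP and 0.954 and 1.36 CPM in ATG7. Cd274 and Lag3 followed the T and NK sum (r = 0.89 each, n = 7) and the dendritic sum (0.85 and 0.84), as did Cd40 (0.93 and 0.79). Cd47 did so too (0.85 and 0.91), and Cd86 (0.66 and 0.79) and Icosl (0.62 and 0.78) less closely. Havcr2 had -0.35 and -0.09. Leaving out EYFP 3 moved Cd80 from 0.33 and 0.55 to 0.84 and 0.87, and Vsir from -0.15 and 0.13 to 0.57 and 0.70. Cd274, Lag3 and Cd40 then had 0.86, 0.88 and 0.90 with the T and NK sum, and 0.83, 0.81 and 0.79 with the dendritic sum. These r values are a description, since both sums, Cd274, Lag3 and Cd40 were higher in every ATG7 library than in any EYFP library. The part of T and NK cells and dendritic cells in the differences was not tested. B cell markers overlapped, at 233.5 to 265.0 CPM in EYFP and 205.0 to 260.0 CPM in ATG7, most of it Ighm. Markers of monocytes, neutrophils and border macrophages (493.6 to 610.7 CPM in EYFP, 507.6 to 672.0 CPM in ATG7) overlapped as a sum. Within that list the monocyte markers Plac8 and Ly6c2 averaged 3.23 and 2.75 CPM in EYFP and 8.79 and 7.63 CPM in ATG7, with no overlap for Plac8, and did not pass (edgeR adjusted p = 0.128 and 0.330). All 8 neuron and all 8 choroid plexus markers had negative log2 ratios, with medians of -0.24 and -0.26, and none passed by edgeR (1 and 2 at an unadjusted p under 0.05). The neuron sum was between 26.1 (EYFP 3) and 45.7 CPM in EYFP and between 27.1 and 31.3 CPM in ATG7, and without EYFP 3, from 37.2 CPM, the groups did not overlap. The choroid plexus sum was between 54920 and 72450 CPM in EYFP and between 46510 and 61330 CPM in ATG7. Their part in the differences was not tested either.

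**Figure D4:**
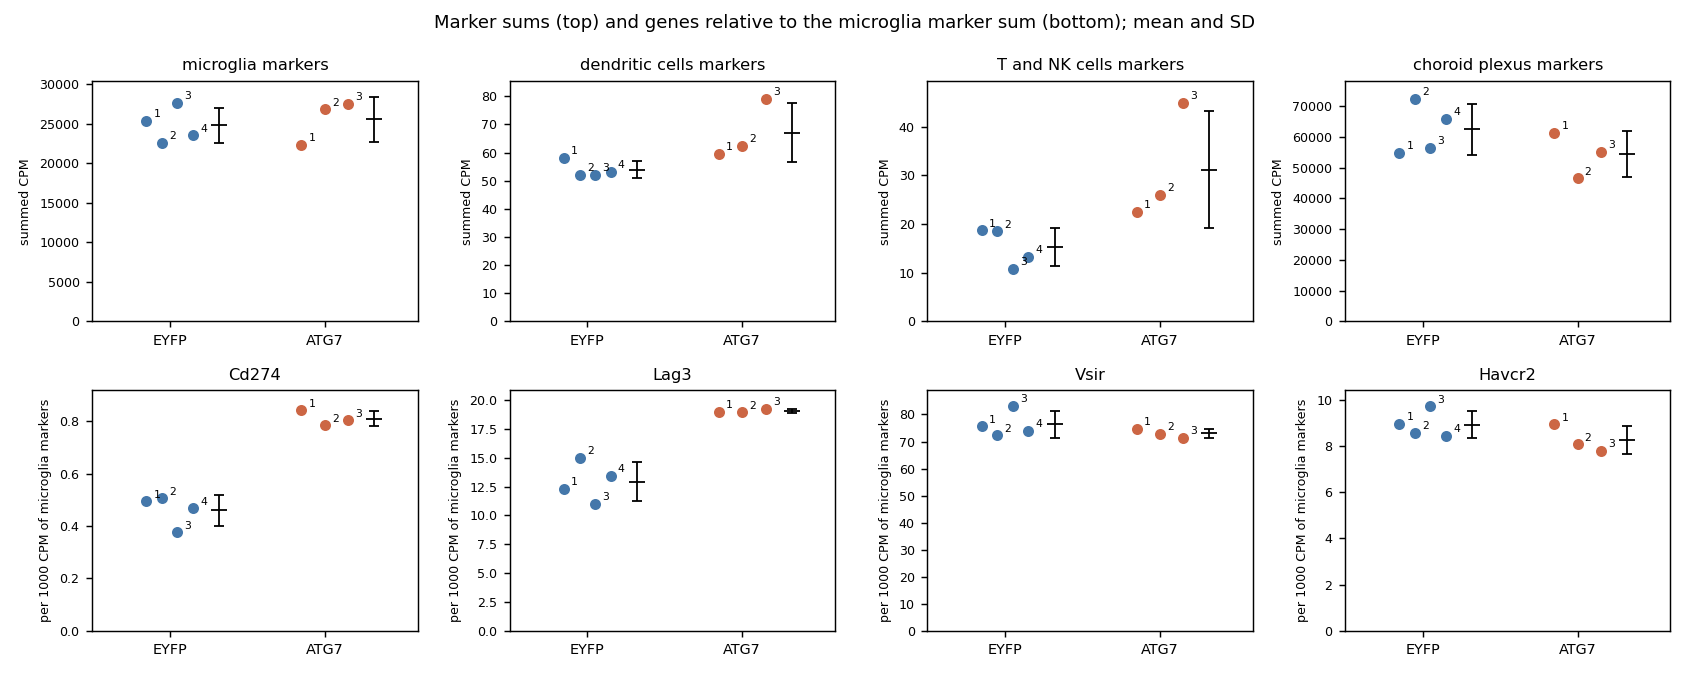
Top, summed CPM of microglia, dendritic cell, T and NK cell and choroid plexus markers in each library. Bottom, Cd274, Lag3, Vsir and Havcr2 per 1000 CPM of microglia markers, with the mean and SD of each group beside the points. T and NK cell and dendritic cell sums are higher in all 3 ATG7 libraries, and Lag3 relative to microglia markers lies between 18.9 and 19.2 in ATG7.

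Upstream of PD-L1, a list of 17 genes named for its inducers and stabilisers was examined, and all were tested. The list also holds the feedback inhibitors Socs1 and Socs3 and the MHC class I transactivator Nlrc5. A rise in it is therefore not always the rise of an inducer. By edgeR 3 of the 17 rose in ATG7 (Stat2, Nlrc5 and Irf1), 0 fell and 14 did not pass, where 0.688% of all genes were called higher. Of the 17, 7 had an unadjusted p under 0.05 (12% of all genes). DESeq2 called 4, against 3.61% of the genes to which it gave an adjusted p. The median log2 ratio was 0.18 against -0.0037 over all genes. Stat2, a transcription factor of type I interferon signalling, stood at 69.2, 48.6, 44.9 and 54.8 CPM across EYFP 1 to 4 and at 94.6, 110.1 and 106.9 CPM across ATG7 1 to 3. All ATG7 libraries were above the controls, of which EYFP 1 was the nearest. Its means were 54.4 ± 10.7 CPM (SD, n = 4) and 103.9 ± 8.17 CPM (SD, n = 3), a log2 ratio of 0.93 (SE 0.131, edgeR adjusted p = 0.0137).

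Nlrc5, the transactivator of MHC class I genes, rose from an EYFP mean of 23.9 ± 7.53 CPM (SD, n = 4) to an ATG7 mean of 67.3 ± 4.29 CPM (SD, n = 3), a log2 ratio of 1.498 (SE 0.223, edgeR adjusted p = 0.0282) and 1.32 without EYFP 3. Irf1, which binds and activates the Cd274 gene in other cells, rose from an EYFP mean of 46.7 ± 5.57 CPM (SD, n = 4) to an ATG7 mean of 67.5 ± 8.39 CPM (SD, n = 3), a log2 ratio of 0.53 (SE 0.105, edgeR adjusted p = 0.0483). These 3 calls were lost when single libraries were left out. Without EYFP 2, EYFP 4, ATG7 2 or ATG7 3 the adjusted p was 0.0522, 0.0574, 0.0753 and 0.0843 for Stat2, 0.151, 0.0804, 0.141 and 0.113 for Nlrc5, and 0.0930, 0.145, 0.103 and 0.237 for Irf1. It was also 0.0699 for Nlrc5 and 0.0720 for Irf1 without ATG7 1, and 0.107 for Irf1 without EYFP 3. Nlrc5 was not called with no filter on low counts (adjusted p = 0.130), nor Irf1 with the size factors of DESeq2 (0.0504) or library size alone (0.0703). The interferon gamma receptor genes Ifngr1 (log2 ratio 0.11) and Ifngr2 (0.22) and the PD-L1 stabilisers Cmtm6 (-0.02) and Cmtm4 (-0.11) did not pass. The T and NK cell and dendritic cell sums given above were higher in the same libraries as the genes that rose, and their part in this result was not tested.

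Downstream of CD40, the pathway to NF-kB was examined as a list of 18, all tested. By edgeR 1 rose in ATG7, 0 fell and 17 did not pass, where 0.688% of all genes were called higher. Of the 18, 7 had an unadjusted p under 0.05 (12% of all genes), and the median log2 ratio was 0.13. DESeq2 called 3, against 3.61% of the genes to which it gave an adjusted p. The gene that passed by edgeR was Nfkb2, the precursor subunit of the non-canonical pathway that CD40 drives. It stood at 29.9, 26.2, 27.8 and 28.1 CPM across EYFP 1 to 4 and at 33.8, 45.9 and 43.9 CPM across ATG7 1 to 3. The groups did not overlap, and Nfkb2 rose by 0.56 (SE 0.104, edgeR adjusted p = 0.0355). The adjusted p was 0.0704 without EYFP 2, 0.0720 without EYFP 3, 0.112 without EYFP 4, 0.186 without ATG7 2 and 0.188 without ATG7 3. The adaptor Traf1 (log2 ratio 0.81, edgeR adjusted p = 0.0511) and the partner subunit Relb (0.50, edgeR adjusted p = 0.0761) did not pass, and the canonical subunits Rela and Nfkb1 had 0.01 and 0.15.

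**Figure D5:**
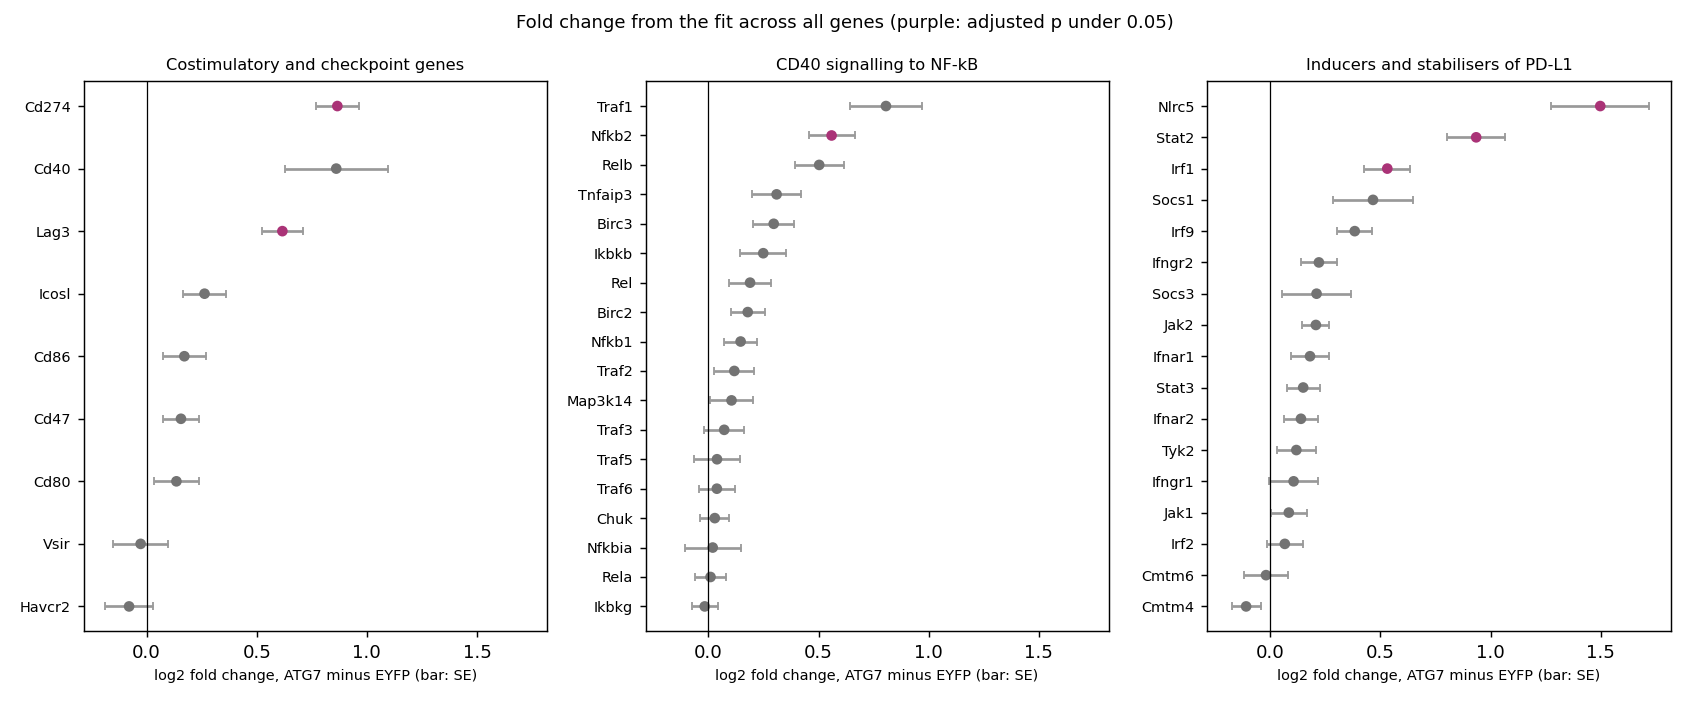
Log2 ratio (ATG7 minus EYFP) with its SE for the 9 fitted costimulatory and checkpoint genes and the 18 genes of CD40 signalling to NF-kB. The 17 genes of the list named for inducers and stabilisers of PD-L1 are also shown. Purple marks an adjusted p under 0.05 in the fit across all genes, which holds for Cd274, Lag3, Nfkb2, Nlrc5, Stat2 and Irf1.

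Among the other B7-family and related ligands of antigen-presenting cells, 19 of 23 were tested and 0 passed by edgeR. Of the 19, 5 had an unadjusted p under 0.05 (12% of all genes). DESeq2 called 1, against 3.61% of the genes to which it gave an adjusted p. The median log2 ratio of the 19 was 0.12. The smallest p values belonged to Cd48, a ligand of the SLAM family (41.4 ± 1.02 CPM (SD, n = 4) and 52.1 ± 4.95 CPM (SD, n = 3), log2 ratio 0.33, edgeR adjusted p = 0.0853), and Tnfsf15, a TNF-family costimulator (0.134 ± 0.0900 CPM (SD, n = 4) and 0.722 ± 0.259 CPM (SD, n = 3), edgeR adjusted p = 0.116). Cd276 (B7-H3), named after its values were seen, went the other way, with an EYFP mean of 33.9 ± 2.88 CPM (SD, n = 4) and an ATG7 mean of 25.7 ± 4.45 CPM (SD, n = 3), no overlap and a log2 ratio of -0.40 (SE 0.118, edgeR adjusted p = 0.188). Vtcn1, another B7 relative, had 0 counts in every library. By counting error alone, this leaves room for an expected count of up to 3 in each library (95% level).

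Among 20 receptors that pair with these ligands on lymphocytes and myeloid cells, 16 were tested and 0 passed by edgeR. Of the 16, 4 had an unadjusted p under 0.05 (12% of all genes). DESeq2 called 1, against 3.61% of the genes to which it gave an adjusted p. The median log2 ratio was 0.27. Pdcd1, the PD-1 receptor itself, stood at 2.84, 4.03, 3.55 and 3.04 CPM across EYFP 1 to 4 and at 3.80, 6.90 and 6.13 CPM across ATG7 1 to 3. ATG7 1 was below EYFP 2, and the log2 ratio was 0.74 (SE 0.216, edgeR adjusted p = 0.182). Cd244a, a receptor for Cd48, had 0.74 (SE 0.249, edgeR adjusted p = 0.262). A pair of partners of the myeloid checkpoints, named after their values were seen, were abundant. Sirpa, the receptor of CD47, was at 386.4 ± 40.7 CPM per kb (SD, n = 4) in the controls and 396.2 ± 41.6 (SD, n = 3) in ATG7. Selplg, a reported VISTA partner, was at 452.8 ± 73.1 (SD, n = 4) and 472.7 ± 38.5 (SD, n = 3), near Vsir at 378.7 and 371.7 CPM per kb. The T cell molecules Ctla4, Tigit and Cd40lg did not pass the filter on low counts.

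The 5 genes whose log2 CPM followed Cd274 most closely over the 7 libraries, among 15051 genes with a mean of at least 1 CPM, were H2-T23 (Pearson r = 0.996), H2-Oa (0.995), Fcgr4 (0.993), Trim25 (0.992) and Rxrg (0.992). H2-T23, a non-classical MHC class I gene, stood at 181.1, 160.1, 145.0 and 155.1 CPM across EYFP 1 to 4 and 238.9, 277.1 and 292.3 CPM across ATG7 1 to 3. Libraries thus kept the same order in H2-T23 as in Cd274, with EYFP 3 lowest and ATG7 3 highest. H2-Oa encodes a chain of the MHC class II modulator DO, Fcgr4 an activating Fc receptor, Trim25 a ubiquitin ligase of antiviral signalling and Rxrg a nuclear receptor. Their log2 ratios were 0.75, 0.39, 1.42, 0.51 and 1.59 in the order given, and all but H2-Oa (edgeR adjusted p = 0.0847) were called. Trim25 was not called without EYFP 4, ATG7 2 or ATG7 3 (adjusted p 0.0676, 0.0721 and 0.106). The r values describe 7 libraries that share the group difference, and Cd274 was chosen on this contrast. Genes picked for likeness to Cd274 will differ between the groups as well, so their calls add no separate evidence.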

How the data were processed

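The authors deposited whole-number raw counts, 1 row per Ensembl gene and 1 column per library. Fastp 0.20.1, HISAT2 2.0.5 and featureCounts, with the builds mm10 and GRCm38, are listed per the submitters' processing notes, and their options, strand setting and annotation release are not given in the sources used here. All 37 mitochondrial genes summed to 0 counts. Symbols, positions and merged exon lengths came from GENCODE M21 (55141 of 55401 identifiers matched), and promoter sequences from RefSeq.

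All 7 libraries entered an edgeR 4.0.16 quasi-likelihood fit (R 4.3.3) with no covariate, after filterByExpr and TMM scaling. P-values are two-sided, with Benjamini-Hochberg adjustment over 19199 genes. Each SE is the size of the log2 fold change over the root of its F statistic, and CPM uses TMM-scaled library sizes. A floor of 3 counts covers counting error only. The fit was tested on simulated data with known changes. It recovered 39.3% of changes of 1.5 times, 69.6% of 2 times and 85.6% of 3 times, so many smaller changes would be missed. Unchanged genes made up 8.33%, 6.25% and 5.14% of the calls, somewhat more than the adjusted p threshold of 0.05 allows for.

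The 10 genes and all lists were chosen with earlier results of these data known. Named are the 10 genes, every called gene of 4 pathway lists (or the 2 with the smallest p), the 5 genes most like Cd274, and markers from 7 lists. Any other gene was chosen after its values were seen. One gene of the list of PD-L1 inducers is not reported here, and the list's counts leave it out. Alternatives were DESeq2 size factors, library size alone, no filter, the DESeq2 1.42.0 Wald test, a replicate block, and each library left out. Levels, ratios, correlations and marker sums without EYFP 3 were added after seeing the data.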

Additional observations from a re-analysis of the deposited data

Results flagged for a closer look

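Within the 4 EYFP libraries, Cd47 in EYFP 4 was set apart from the others at 90.9 CPM, against 98.9 to 100.4 CPM in EYFP 1 to 3. Its gap to the nearest library, relative to the range of the group, exceeded Dixon's critical value for 4 samples. In all, 14 genes were compared in this way, and chance sets apart about 1 in 20.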

How the results depend on the processing

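With no filter on low counts 297 genes were called, and with the DESeq2 Wald test 585, against 145 by edgeR with the filter. Over the fits that left out 1 library, the count ran from 28 to 277. Among the 10 genes described, 1 to 2 were called in those fits. For CD40 signalling to NF-kB the count was 0 to 1, with 3 when no filter was used and 3 by DESeq2. The list named for inducers and stabilisers of PD-L1 had 0 to 4 over the left-out libraries, against 3 with all of them. The other ligands had 2 with no filter (Cd48 and Tnfsf15) and 1 by DESeq2 (Cd48), and the receptors 1 by DESeq2 (Pdcd1). The log2 ratio of Havcr2 ran from -0.145 to 0.0198 over the left-out libraries, and that of Vsir from -0.0979 to 0.0734. Both turned positive without EYFP 3, and Vsir also, at 0.0472, without ATG7 1. With the replicate block, 0 genes were called over all genes, 0 among the 10 described, 0 in CD40 signalling and 0 in the PD-L1 list. The log2 ratio of Cd274 in that block fit was 0.85. Same-numbered libraries did not deviate together (r = -0.114, -0.317 and 0.124 for numbers 1, 2 and 3), and EYFP 4 has no partner. Differently numbered libraries ran from -0.208 to 0.320. So few values cannot decide whether the numbers pair libraries, and the labels do not say what the numbers mean. The cause of these changes was not tested. Over 12 alternatives the log2 ratio ran from 0.81 to 0.93 for Cd274 and from 0.55 to 0.71 for Lag3, both chosen on this contrast. At this depth, 3 counts equal 0.0546 to 0.0820 CPM, which limits Pdcd1lg2.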
